A study of Mus musculus with 12 samples.

Results

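9 transcription factors with known roles in making and maintaining macrophages were examined in pigment-laden and other macrophages of mouse skin: Spi1 (which encodes PU.1), Maf, Cebpa, Cebpb, Runx1, Runx3, Zeb2, Pparg and Mef2c. They were chosen by name, each was read from the probe set that carries its symbol in the platform annotation, and they make up 9 of the 19938 genes tested. Each has exactly 1 such probe set. PU.1 is the factor on which the myeloid lineage depends, and it works beside C/EBP and RUNX proteins at the enhancers of genes such as the receptor for colony-stimulating factor 1. Once a macrophage has settled in a tissue, further factors are known to shape its program there, among them MAF, ZEB2, the lipid-sensing nuclear receptor PPARG and the MADS-box factor MEF2C.

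Cells were sorted from the skin of untreated wild-type C57BL/6 mice kept under specific-pathogen-free conditions, and the labels give no age. Each group had 3 arrays. Cells of all 4 groups carried CD11b and CD64 and lacked CD24, CCR2 and Ly6C, according to the sorting gate for the proteins. Melanophages, the pigment-laden cells, were sorted for high side scatter and divided by MHC-II into negative and positive cells, and macrophages labelled as such were divided likewise. For the macrophages the titles and the phenotype labels disagree on side scatter, so it was not used to define a group. The labels do not state whether arrays of the same group came from separate mice, so p-values measure spread among the samples at hand, and that spread may be technical.

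Values are the deposited log2 expression values, so a difference of 1 is 2-fold on that scale, and levels are compared for the same gene across groups and never between genes. Array medians over all probe sets lay between 2.97 and 3.08, and a difference from a group mean near them may be understated. Macrophage identity was checked on 8 markers (Csf1r, Cd68, Adgre1, Mertk, Fcgr1, C1qa, Lyz2, Mrc1). All 8 had a mean above 4 over the 12 arrays, and the log2 of their summed linear level lay between 13.35 and 13.55 in every array. Bright markers such as Lyz2 and Cd68 weigh most in that sum, which says little about the dimmer ones. Transcripts of proteins that the gate excluded were not low in all groups. Ccr2 had means of 3.40 and 6.75 in MHC-II-negative and MHC-II-positive melanophages and of 3.99 and 7.11 in the macrophages, a difference between MHC-II classes of 3.23 ± 0.20 (limma adjusted p = 3.93e-05). Cd24a had means of 3.16, 4.38, 4.13 and 5.98 in the same order (1.54 ± 0.32 between MHC-II classes, adjusted p = 0.0679). Replicate 1 of the MHC-II-negative macrophages (mean correlation 0.972) and replicate 3 of the MHC-II-positive macrophages stood farthest from the other arrays of their groups. For the factors, and for their relatives and targets that passed limma's test, estimates were also read without these arrays. Those that moved by over 1.5 times are given without them as well. Estimates of other genes, Ccr2 and Cd24a among them, were not checked in this way.

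Of the 9 factors, Runx3 was the gene whose groups separated. RUNX3 is a Runt-domain DNA-binding protein best known in cytotoxic T cells, natural killer cells, innate lymphoid cells and Langerhans cells, and RUNX1 is its relative required for blood formation. The genes of this family are read from an upstream and a downstream promoter, and RUNX proteins bind the letters TGTGGT or, on the other strand, ACCACA. The 250 bases before each Runx3 start site annotated by RefSeq (build GRCm38.p6, plus strand) are shown because Runx3 is the factor on which the comparisons below turn, with RUNX letters in capitals.

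Runx3, upstream start, chr4:135120395-135120644: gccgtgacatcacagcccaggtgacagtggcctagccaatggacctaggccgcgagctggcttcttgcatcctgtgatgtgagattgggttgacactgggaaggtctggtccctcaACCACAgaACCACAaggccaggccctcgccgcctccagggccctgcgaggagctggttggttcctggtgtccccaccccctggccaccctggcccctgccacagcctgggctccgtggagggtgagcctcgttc
Runx3, downstream start, chr4:135152295-135152544: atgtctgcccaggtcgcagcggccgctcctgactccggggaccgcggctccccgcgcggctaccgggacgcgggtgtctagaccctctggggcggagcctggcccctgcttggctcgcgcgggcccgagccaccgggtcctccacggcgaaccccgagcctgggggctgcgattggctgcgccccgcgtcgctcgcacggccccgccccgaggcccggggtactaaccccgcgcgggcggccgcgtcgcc

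The upstream window held 2 RUNX matches, which start at positions -134 and -126 relative to the start site, and the downstream window held 0. The letters TGTGGT on either strand were found in 16.8% of all 32851 promoter windows of the RefSeq table (250 bases before to 50 after a start) and in 2 of the 16 windows of these factors, both of RUNX genes. The arrangement of 2 ACCACA runs with 2 bases between them was searched after the windows had been seen. It occurred in 7 of the 32851 windows (0.0213%), among them a window of each of Runx1, Runx2 and Runx3. The 24 bases around it are shown to compare the family, with Runx1 and Runx2 on the minus strand of the genome and Runx3 on the plus strand.

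Runx3, chr4:135120506-135120529: cctcaACCACAgaACCACAaggcc
Runx1, chr16:92826028-92826051: aaacaACCACAgaACCACAagttg
Runx2, chr17:44814586-44814609: aaacaACCACAgaACCACAagtgc

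The Runx3 stretch lay before its start site (positions -139 to -116), whereas the Runx1 and Runx2 stretches lay just after theirs (positions 24 to 47 and 19 to 42). Runx1 and Runx2 shared 22 of 24 bases, Runx3 and Runx2 shared 19, and Runx3 and Runx1 shared 18. These counts include the letters of both ACCACA runs, which every stretch holds because the search required them. Promoter windows were matched for 7 of the 9 factors, all but Spi1 and Maf. Letters bound by other factors of the set were also searched on both strands. The C/EBP letters TTGCNNAA were found in a window of Zeb2 and a window of Pparg (10.8% of all windows), and the ZEB letters CAGGTG in a window each of Runx1, Runx3 and Pparg (20.2%). The PU.1 letters GAGGAAGT (3.2% of all windows), the MEF2 motif (3.69%), the palindromic MAF motif (0.0244%) and the direct-repeat motif of PPARG with RXR (0.0396%) were in 0 of the 16. These matches describe letters in the windows. The Runx3 probe set gives a single summary per array and does not tell the start sites apart, and Runx2 expression was not analysed here.

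Runx3 (probe set 10509030, Entrez 12399, chromosome 4) was lowest in MHC-II-negative melanophages, at log2 levels of 2.94, 3.03 and 2.94. MHC-II-positive melanophages had 3.91, 3.77 and 3.60. MHC-II-negative macrophages had 3.41, 3.65 and 3.81. These groups all lay close to the dim end of the arrays. Of the MHC-II-negative melanophages, 1 array lay within the range of the array medians and the other two just below it. MHC-II-positive macrophages were highest and most spread, at 4.78, 5.94 and 3.98. Group means were 2.97 ± 0.054, 3.76 ± 0.16, 3.62 ± 0.20 and 4.90 ± 0.98 in the same order (SD, n = 3 each). The middle groups, MHC-II-positive melanophages and MHC-II-negative macrophages, overlapped each other. The lowest and the highest group overlapped no other group.

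Runx3 arrays did not overlap in any of the 4 comparisons within a stratum, which share arrays with each other. Melanophages lay below macrophages among MHC-II-negative cells with 0.37 between the nearest arrays (3.91% of all genes lay lower with no overlap) and among MHC-II-positive cells with only 0.068 between them (4.91%). MHC-II-positive cells lay above MHC-II-negative cells with a gap of 0.56 in melanophages (5.12% of genes lay higher with no overlap) and of 0.17 in macrophages (4.96%). 27 of 19938 genes (0.135%) had no overlap in both strata of both averaged comparisons, and Runx3 was 1 of them.

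**Figure D1:**
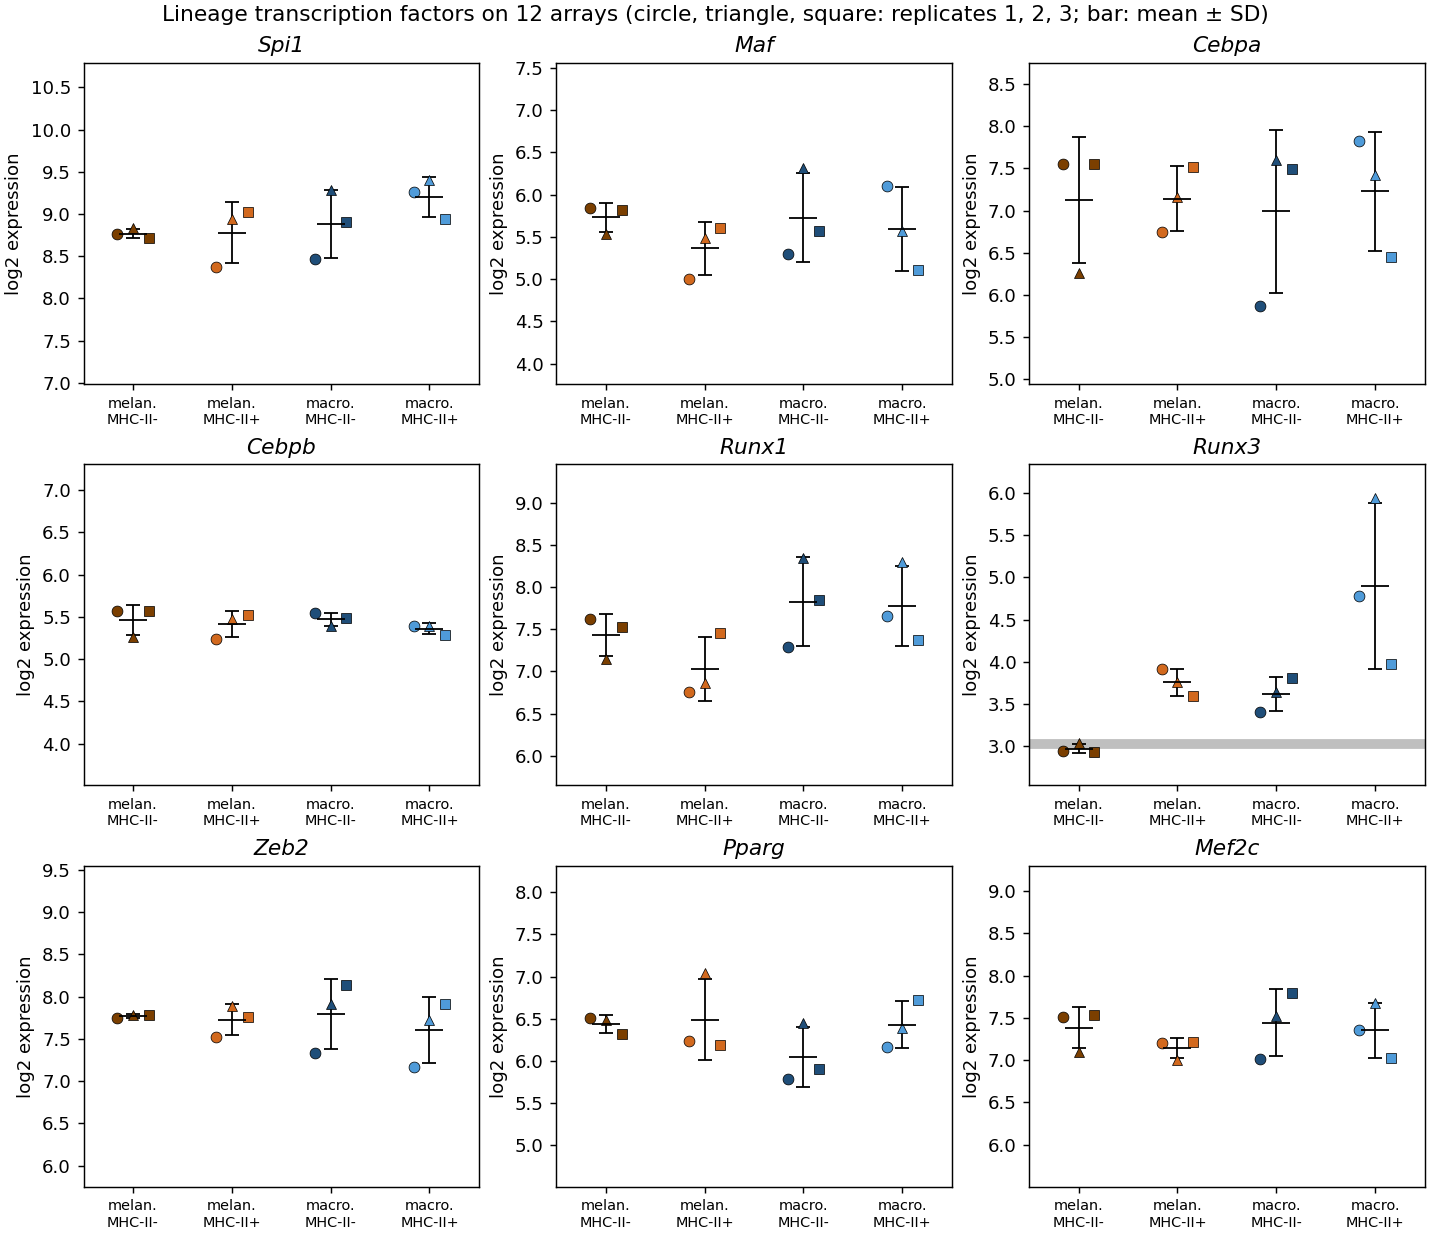
Log2 expression of each factor (vertical axes, all spanning the same number of log2 units) in the 4 groups (horizontal axes), with circles, triangles and squares for replicates 1, 2 and 3 and bars for the mean ± SD of 3 arrays. Runx3 in MHC-II-negative melanophages (mean 2.97) lies at the lower edge of the grey band, which marks the range of the array medians (2.97 to 3.08), and has a mean of 4.90 in MHC-II-positive macrophages, while the arrays of the other 8 genes overlap in all 4 comparisons within a stratum.

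Averaged over MHC-II class, Runx3 differed between melanophages and macrophages by -0.89 ± 0.26 (log2, SE; 95% confidence interval -1.47 to -0.32; 1.86-fold lower in melanophages), and this did not pass limma's test after Benjamini-Hochberg adjustment over all genes (adjusted p = 0.381). Averaged over cell kind, it differed between MHC-II-positive and MHC-II-negative cells by 1.03 ± 0.26 (interval 0.46 to 1.61; 2.05-fold higher in MHC-II-positive cells; limma adjusted p = 0.150). Because MHC-II-negative melanophages lay at or just below the array medians, these estimates may understate the differences. In bulk samples, fewer cells that carry a transcript and less of it per cell cannot be told apart.

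These averaged Runx3 estimates turned on the MHC-II-positive macrophages. Estimates that do not use the mean of this group were 0.79 ± 0.37 within melanophages (limma adjusted p = 0.886) and -0.65 ± 0.37 among MHC-II-negative cells (adjusted p = 0.964). Their SE rests on a spread shared by all 4 groups, and the SD was by far the largest, 0.98, in the MHC-II-positive macrophages. Without replicate 3 of that group, the averaged MHC-II difference was 1.26 (limma adjusted p = 0.0130) and the one within macrophages 1.74 (adjusted p = 0.0296, against 1.28 ± 0.37 and adjusted p = 0.295 with it), and both passed. Without that array and replicate 1 of the MHC-II-negative macrophages, the one within macrophages was 1.63 (limma adjusted p = 0.0763), the difference between cell kinds was -1.18 (limma adjusted p = 0.0471) and the averaged MHC-II difference 1.21 (adjusted p = 0.0309). Without replicate 2 of the MHC-II-positive macrophages, which held the highest Runx3 value, they were -0.64 (limma adjusted p = 0.272) and 0.77 (adjusted p = 0.0541), and the one within macrophages was 0.76 (adjusted p = 0.333). The difference among MHC-II-positive cells was -1.14 ± 0.37 with all arrays and -0.62 without that replicate. The interaction was -0.49 ± 0.52 (limma adjusted p = 0.9996) and moved to 0.027 without that replicate. It was -0.95 ± 0.37 without replicate 3 of the MHC-II-positive macrophages (limma adjusted p = 0.836). Without both macrophage arrays that stood apart it was -0.85 ± 0.39 (adjusted p = 0.821). None of these passed, so these arrays do not show that the MHC-II difference in Runx3 depends on the cell kind.

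Marker levels of cells known to carry Runx3 stand beside these values. The Langerhans cell markers Cd207, Epcam and Cdh1 were dim, 3 of 3 having a mean under 4 over the 12 arrays. The log2 of their summed linear level was 4.36 to 4.51 in MHC-II-negative melanophages, 4.55 to 4.69 in MHC-II-positive melanophages, 4.50 to 4.61 in MHC-II-negative macrophages and 5.51 to 6.05 in MHC-II-positive macrophages. Within that last group the sums of replicates 1, 2 and 3 were 6.05, 5.51 and 5.91, and Cd207 alone was 5.46, 4.61 and 5.43. Runx3 was 4.78, 5.94 and 3.98 in these replicates. Group means of Cd207 were 2.81, 3.17, 3.13 and 5.17 in the order above. Cd207 was lower in melanophages by -1.16 ± 0.15 (limma adjusted p = 0.0262) and higher in MHC-II-positive cells by 1.198 ± 0.15 (adjusted p = 0.00356), the signs of the Runx3 estimates. Of 7 T cell and innate lymphoid cell markers measured, Cd3e, Cd3g, Cd3d, Gata3 and Ncr1 were dim and Cd2 and Il7r were not. Their summed level was 7.82 to 8.28, 8.93 to 9.08, 6.56 to 7.22 and 8.68 to 9.83 in the same group order, lowest in MHC-II-negative macrophages. The bright Il7r weighs most in that sum and had means of 7.85, 8.78, 5.98 and 8.94. Cd2 had means of 3.15, 5.04, 4.18 and 5.03, lowest in MHC-II-negative melanophages as Runx3 was. Of 7 dendritic cell markers, Flt3, Zbtb46, Xcr1 and Clec9a were dim, and the summed level was 7.61 to 8.19, 7.77 to 8.88, 7.65 to 8.26 and 8.55 to 9.21. Itgax of that list, with means of 3.41, 4.03, 3.56 and 5.47, was also lower in melanophages (-0.80 ± 0.11, limma adjusted p = 0.0404) and higher in MHC-II-positive cells (1.26 ± 0.11, adjusted p = 0.000379). The order of group means of Cd207, Cdh1, Itgax, Ccr7 and Cd209a was that of Runx3, from MHC-II-negative melanophages as the lowest to MHC-II-positive macrophages as the highest. The other Langerhans and dendritic cell markers, Epcam, Flt3, Zbtb46, Xcr1 and Clec9a, did not follow it. Transcripts of the excluded proteins, Ccr2 and Cd24a, did, and so did the MHC-II genes H2-Ab1 and H2-Eb1, but not H2-Aa. The share of all genes with this order was not counted, so the order does not single out markers of any cell type. The part of such cells in the Runx3 values was not tested.

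Runx1 (probe set 10441003, Entrez 12394, chromosome 16) was brighter and its groups overlapped. Its levels were 7.62, 7.15 and 7.53 in MHC-II-negative melanophages and 6.76, 6.86 and 7.46 in MHC-II-positive melanophages. They were 7.29, 8.34 and 7.85 in MHC-II-negative macrophages and 7.66, 8.30 and 7.37 in MHC-II-positive macrophages. The higher macrophage arrays exceeded every melanophage array, and the lower ones did not. Melanophages against macrophages gave -0.57 ± 0.22 (interval -1.05 to -0.09; limma adjusted p = 0.566), with -0.75 ± 0.31 among MHC-II-positive cells (adjusted p = 0.763), and the MHC-II difference was -0.23 ± 0.22 (adjusted p = 0.806). The Runx1 and Runx3 estimates therefore had the same sign between cell kinds and opposite signs between MHC-II classes, where that of Runx1 has an interval that spans 0. Cbfb, the shared non-DNA-binding partner of the RUNX proteins, gave -0.14 ± 0.24 and 0.07 ± 0.24 in these comparisons (limma adjusted p = 0.941 and 0.956).

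None of the 9 factors passed limma's test in any of the 7 comparisons, which were both averaged ones, the 4 within a stratum and the interaction. Between melanophages and macrophages, averaged over MHC-II class, 0 of 9 passed against 0.12% of all genes, and at an unadjusted p under 0.05 there were 2 (Runx3 and Runx1) against 7.52% of all genes. Among MHC-II-negative cells 0 passed (0.00502% of all genes) and 0 had such an unadjusted p (5.65%). Among MHC-II-positive cells 0 passed (0.015%) and 2, again Runx3 and Runx1, had it (6.3%). Between the MHC-II classes, averaged over cell kind, 0 passed (0.762% of all genes) and Runx3 alone had an unadjusted p under 0.05 (9.23%). Within melanophages 0 passed (0.211%) and 0 had it (5.7%), and within macrophages 0 passed (0.341%) and 1, Runx3, had it (7.83%). In the interaction 0 passed, as did 0% of all genes, and 0 had it (4.11%). With so few genes called in all, a count of 0 among 9 is near the background in each comparison.

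The median difference of the 9 factors was -0.11 between cell kinds and -0.085 between MHC-II classes, against 0.011 and -0.024 over all genes. In each of these comparisons 4 factors lay above 0 and 5 below. These signs are not stable for all genes, since those of Maf, Cebpa, Cebpb and Zeb2 between cell kinds and that of Cebpa between MHC-II classes turned under some alternatives.

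**Figure D2:**
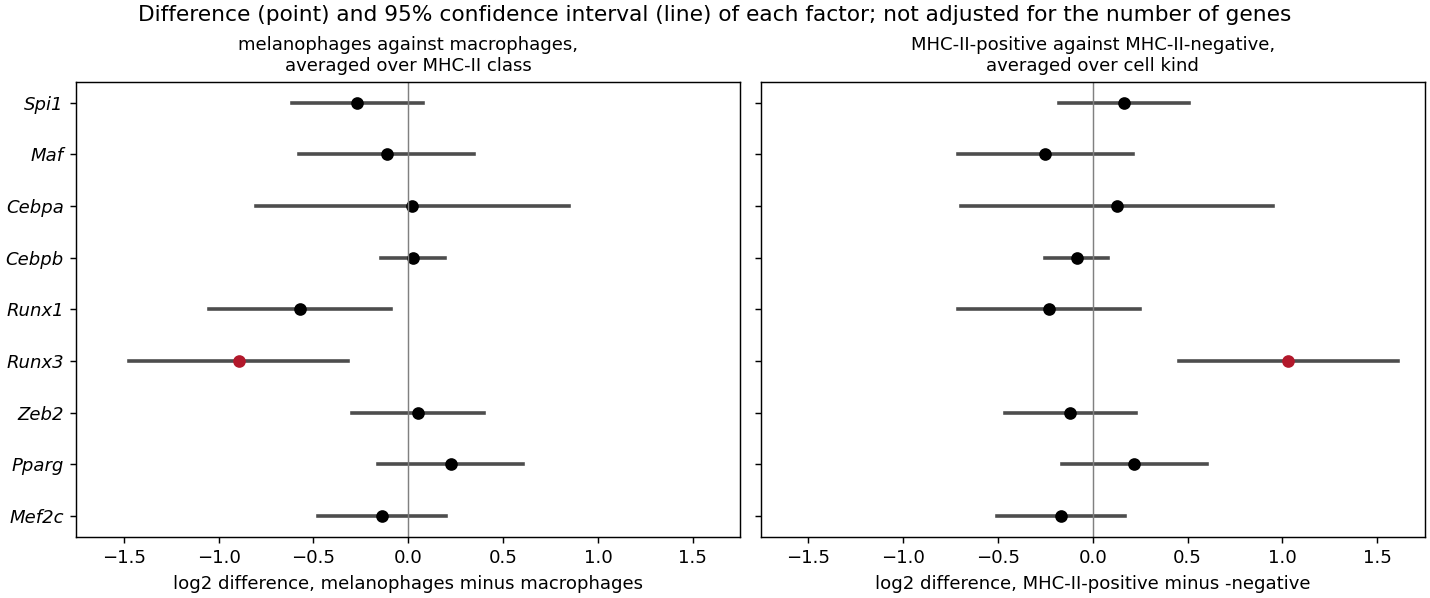
Difference of each factor in both averaged comparisons (log2, horizontal axes), with the point for the limma estimate and the line for its 95% confidence interval, not adjusted for the number of genes. Runx3 (red) lies at -0.89 and 1.03, Runx1 lies at -0.57 between cell kinds, and the intervals of the other estimates cross 0.

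Spi1 (probe set 10473809, Entrez 20375, chromosome 2) encodes the factor that macrophages need throughout life and was bright in every array. Levels were 8.76, 8.83 and 8.72 in MHC-II-negative melanophages, 8.37, 8.95 and 9.02 in MHC-II-positive melanophages, 8.47, 9.28 and 8.90 in MHC-II-negative macrophages and 9.26, 9.41 and 8.94 in MHC-II-positive macrophages. The highest group exceeded the lowest by 0.43, which is 1.45 times the pooled SD of the arrays within groups. The difference between cell kinds was -0.27 ± 0.16 (interval -0.61 to 0.08; limma adjusted p = 0.754) and that between MHC-II classes 0.16 ± 0.16 (interval -0.18 to 0.51; adjusted p = 0.805). The intervals, which take no account of the number of genes tested, hold changes of up to 1.53-fold and 1.42-fold.

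The C/EBP factors marked the ends of the range of precision. Cebpb (probe set 10478890, Entrez 12608, chromosome 2), known for inflammatory genes and for the survival of some monocytes and resident macrophages, was the steadiest of the 9. Its levels were 5.58, 5.26 and 5.57 in MHC-II-negative melanophages, 5.23, 5.48 and 5.52 in MHC-II-positive melanophages, 5.54, 5.39 and 5.48 in MHC-II-negative macrophages and 5.40, 5.40 and 5.28 in MHC-II-positive macrophages. The pooled SD within groups was 0.129, and the differences were 0.02 ± 0.08 between cell kinds (limma adjusted p = 0.970) and -0.08 ± 0.08 between MHC-II classes (adjusted p = 0.788). Its intervals hold at most a 1.14-fold and a 1.19-fold change, the narrowest bounds in the set.

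Cebpa (probe set 10552140, Entrez 12606, chromosome 7), which acts early in myeloid commitment, had the largest pooled SD, 0.73. Its levels were 7.55, 6.26 and 7.55 in MHC-II-negative melanophages, 6.74, 7.17 and 7.51 in MHC-II-positive melanophages, 5.87, 7.60 and 7.49 in MHC-II-negative macrophages and 7.82, 7.42 and 6.44 in MHC-II-positive macrophages. In 3 of the 4 groups a single array lay well below its mates. The 4 means differed by 0.24 at most, which is 0.326 of the pooled SD and the smallest such ratio of the 9 genes. The interval between cell kinds, -0.80 to 0.85 around 0.02 ± 0.37 (limma adjusted p = 0.996), still holds changes of up to 1.80-fold, and that between MHC-II classes, -0.70 to 0.95 around 0.13 ± 0.37 (adjusted p = 0.945), up to 1.94-fold.

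Maf (probe set 10581992, Entrez 17132, chromosome 8), a bZIP factor of resident macrophages, had means of 5.73 ± 0.17, 5.36 ± 0.32, 5.73 ± 0.53 and 5.59 ± 0.50 (SD, n = 3), in the order of MHC-II-negative and MHC-II-positive melanophages and then MHC-II-negative and MHC-II-positive cells of the macrophages. It ranged over the 12 arrays from 5.002 to 6.31, with the lowest value in MHC-II-positive melanophages and the highest in MHC-II-negative macrophages. The difference between cell kinds was -0.11 ± 0.21 (interval -0.58 to 0.35; limma adjusted p = 0.944) and between MHC-II classes -0.25 ± 0.21 (interval -0.71 to 0.21; adjusted p = 0.766). Zeb2 (probe set 10482448, Entrez 24136, chromosome 2), a zinc-finger repressor that guards tissue identity in macrophages, had means of 7.77 ± 0.023, 7.73 ± 0.19, 7.80 ± 0.41 and 7.60 ± 0.39 in the same order. The 3 MHC-II-negative melanophage arrays were almost alike at 7.74, 7.79 and 7.78, and the macrophage arrays spanned 7.16 to 8.14. The Zeb2 difference was 0.05 ± 0.16 between cell kinds (interval -0.29 to 0.40; limma adjusted p = 0.969) and -0.12 ± 0.16 between MHC-II classes (interval -0.46 to 0.23; adjusted p = 0.867). Replicate 1 was the lowest Zeb2 array in every group. With runs of consecutive codes in the titles as a block, the Zeb2 SE was 0.11 in both comparisons (limma adjusted p = 0.957 and 0.807).

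Pparg (probe set 10540897, Entrez 19016, chromosome 6), the receptor for fatty acid ligands that drives lipid handling, had means of 6.44 ± 0.10, 6.49 ± 0.48, 6.05 ± 0.35 and 6.43 ± 0.28 in that order. The lowest mean was that of the MHC-II-negative macrophages, whose arrays read 5.78, 6.45 and 5.91 and overlapped each other group. Pparg differed by 0.22 ± 0.17 between cell kinds (interval -0.16 to 0.61; limma adjusted p = 0.831) and by 0.22 ± 0.17 between MHC-II classes (interval -0.16 to 0.60; adjusted p = 0.753). Pparg is also a gene of fat cells, and the adipocyte markers Adipoq, Plin1, Cidec and Lep were dim, 4 of 4, with a summed level of 4.87 to 5.06 in every array. Mef2c (probe set 10406434, Entrez 17260, chromosome 13), which acts in myeloid and lymphoid precursors as well as in muscle, had means of 7.38 ± 0.24, 7.14 ± 0.12, 7.45 ± 0.40 and 7.35 ± 0.33. Its differences were -0.14 ± 0.15 (interval -0.47 to 0.20; limma adjusted p = 0.888) and -0.17 ± 0.15 (interval -0.51 to 0.17; adjusted p = 0.792).

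Set against the pooled SD within groups, the range of the 4 group means was 3.79 SD for Runx3, 1.89 for Runx1, 1.45 for Spi1, 1.33 for Pparg, 1.05 for Mef2c, 0.905 for Maf, 0.882 for Cebpb, 0.651 for Zeb2 and 0.326 for Cebpa. For Runx3 the pooled SD was 0.51, while the SD of the MHC-II-positive macrophages alone was 0.98. Apart from Runx3, neighbouring groups in the order of means of each gene overlapped in their arrays. Most of what these 8 genes varied by thus lay between arrays of the same group.

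Leaving out both macrophage arrays that stood apart moved several of these estimates by over 1.5 times. Between cell kinds Spi1 was then -0.44, Maf -0.34, Cebpa -0.45 and Mef2c -0.33 (limma adjusted p = 0.198, 0.453, 0.499 and 0.253), so that the Cebpa estimate turned sign, and Zeb2 was 0.015 (adjusted p = 0.969). Between MHC-II classes Zeb2 was -0.31, Pparg 0.079, Cebpb -0.048 and Cebpa 0.045 (limma adjusted p = 0.434, 0.941, 0.921 and 0.986). None of these passed the test with or without the arrays.

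That variation was shared by several factors. Replicate 1 of the MHC-II-negative macrophages had the lowest value of its group for 8 of the 9 factors, with a mean deviation of -0.42 from the group means, and Cebpb was the exception. Replicate 3 of the MHC-II-positive macrophages was lowest for 7 of 9 (mean deviation -0.29), with Zeb2 and Pparg as the exceptions, and these are the arrays that stood farthest from their groups over all genes. Replicate 1 of the MHC-II-positive melanophages was lowest for 6 factors and replicate 2 of the MHC-II-negative melanophages for 5.

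**Figure D3:**
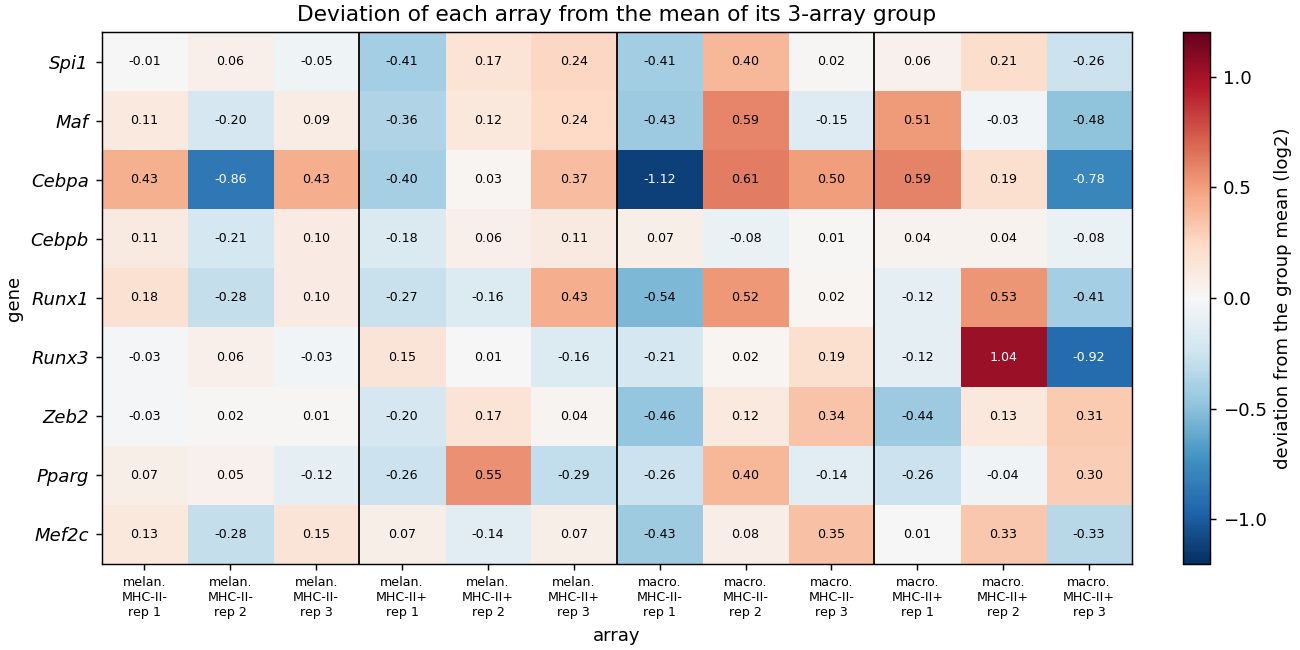
Deviation of each array (horizontal axis) from the mean of its own group for each factor (vertical axis), on the log2 scale, with blue below and red above the group mean. Replicate 1 of the MHC-II-negative macrophages is blue for 8 of 9 factors, with Cebpa at -1.12, and the Runx3 row is widest in the MHC-II-positive macrophages.

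As a description over the 12 arrays, which share their group means and array-wide deviations, the highest correlations between factors were those of Runx1 with Mef2c (r = 0.757), Spi1 with Runx1 (r = 0.730), Maf with Cebpa (r = 0.712) and Cebpa with Mef2c (r = 0.700). On deviations from the group means they were 0.75, 0.801, 0.816 and 0.814. Runx1 and Runx3 correlated at 0.413 (0.540 on deviations), and the lowest value was -0.312, for Pparg with Mef2c. Cebpb, the steadiest gene, had no r above 0.371 with another factor.

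Among the 9593 named genes above the median mean level, those most like each factor over the 12 arrays were as follows, as Pearson's r and with nothing implied about shared function. Runx3 was closest to Ehd1 (0.921), Ddx17 (0.910) and Bcl2l11 (0.901). Runx1 was closest to Kmt5b (0.953), Plec (0.944) and Slc1a5 (0.942), and Spi1 to Rela (0.936), Sbno2 (0.928) and Il10ra (0.916). Rela encodes a subunit of the inflammatory factor NF-kB, and Il10ra a chain of the interleukin-10 receptor. Cebpa was closest to Ilrun (0.943), Foxj2 (0.936) and Snrnp200 (0.930), and Maf to Ago4 (0.961), Camta2 (0.927) and Layn (0.921). Mef2c was closest to Acadvl (0.923), Mepce (0.921) and Cables1 (0.916), and Zeb2 to Clk4 (0.929), Kmt2e (0.925) and Iqgap2 (0.898). Ddx17 and Snrnp200 encode RNA helicases, and Kmt5b encodes a histone methyltransferase. Cebpb and Pparg had lower best values, with Cldn14 (0.885), Scaf1 (0.859) and Tesmin (0.840) for Cebpb and Pqbp1 (0.850), Snrpa1 (0.845) and Ifitm1 (0.820) for Pparg.

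Relatives and partners of these factors were read from lists of 80 further transcription regulators, of which 74 were measured. The lists were chosen with earlier results of these data known, so the shares of all genes beside their counts are a description only. Between cell kinds 0 of 74 passed limma's test (0.12% of all genes) and 10 had an unadjusted p under 0.05 (7.52%), 15 lay above 0 and 59 below, and the median was -0.126, against 45.2% of all genes below 0 and a median of 0.011. Between MHC-II classes 4 passed, all higher in MHC-II-positive cells, and 70 did not, against 0.762% of all genes called. In all 19 had an unadjusted p under 0.05 (9.23% of all genes), 46 lay above 0 and 28 below (59.8% of all genes below), and the median was 0.049 against -0.024 over all genes. No relative within the C/EBP, RUNX, ZEB or MEF2 lists, nor any of the 13 ETS and IRF partners of PU.1, was among the 4 that passed. Of those 13 partners, 2 had an unadjusted p under 0.05 between cell kinds (7.52% of all genes), and 11 lay below 0. Between MHC-II classes 4 of the 13 had it (9.23% of all genes), and 11 lay above 0. Cebpd, the nearest of the C/EBP relatives, gave -0.53 ± 0.14 (limma adjusted p = 0.186). Zeb1 gave -0.02 ± 0.11 (adjusted p = 0.977), Mef2d 0.15 ± 0.25 (adjusted p = 0.894) and Irf8, a PU.1 partner in monocytes and dendritic cells, 0.24 ± 0.13 (adjusted p = 0.637). The MiT-TFE factors, which control lysosomal genes and include the pigment cell factor Mitf, gave 0 of 4 in both comparisons (1 and 0 with an unadjusted p under 0.05), with Mitf at 0.24 ± 0.18 between cell kinds (adjusted p = 0.822).

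Ahr, the aryl hydrocarbon receptor, had the smallest adjusted p of these regulators. Its levels were 6.09, 5.84 and 5.34 in MHC-II-negative melanophages against 6.61, 6.74 and 6.73 in MHC-II-positive melanophages. They were 5.52, 6.00 and 5.90 in MHC-II-negative macrophages against 6.79, 7.05 and 7.11 in MHC-II-positive macrophages. The MHC-II classes did not overlap in either cell kind, and Ahr was 1.05 ± 0.13 higher in MHC-II-positive cells (limma adjusted p = 0.00354), a call that held when each array was left out in turn. Bach1, a repressor that pairs with small MAF proteins and answers to heme, was 0.65 ± 0.12 higher (adjusted p = 0.0321), with means of 6.12 and 6.59 in melanophages and of 6.34 and 7.18 in macrophages. The orphan nuclear receptor gene Nr4a3 was 1.40 ± 0.27 higher (adjusted p = 0.0471), and Nfil3, a bZIP factor of innate lymphoid cells and dendritic cells, 0.67 ± 0.12 higher (adjusted p = 0.0330).

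The last 3 calls were lost without any of several single arrays. The Bach1 call held only without replicates 1 or 2 of the MHC-II-negative macrophages or replicates 2 or 3 of the MHC-II-positive macrophages, and leaving out any of the other 8 arrays gave an adjusted p of 0.0523 to 0.0958. That of Nr4a3 held only without replicate 1 of the MHC-II-positive melanophages or replicate 3 of the MHC-II-positive macrophages, and leaving out any of the other 10 gave 0.0665 to 0.128. That of Nfil3 held without either of those arrays or without replicate 1 of the MHC-II-negative melanophages, and leaving out any of the other 9 gave 0.0618 to 0.0937. With the runs of title codes as a block (each run holds 1 array of every group), all 3 calls were lost as well, at a limma adjusted p of 0.0805 for Bach1 and Nfil3 and 0.0997 for Nr4a3. Without both macrophage arrays that stood apart, those of Nr4a3 (0.0735) and Nfil3 (0.0588) were lost.

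Genes known as targets of 4 of the factors were read from lists of 39, of which 38 were measured. These lists too were chosen with earlier results of these data known. Between cell kinds 1 passed and 37 did not (0.12% of all genes passed), and 11 had an unadjusted p under 0.05 (7.52%). Between MHC-II classes 3 passed and 35 did not (0.762%), and 19 had an unadjusted p under 0.05 (9.23%). None of the 11 PU.1 targets passed limma's test (4 had an unadjusted p under 0.05 between cell kinds and 5 between MHC-II classes, against 7.52% and 9.23% of all genes). Itgam, which encodes the CD11b on which the cells were sorted, gave -1.02 ± 0.18 between cell kinds (limma adjusted p = 0.0772). Csf1r, a gene that PU.1, C/EBP and RUNX proteins bind, gave -0.38 ± 0.23 (adjusted p = 0.762). None of the 9 PPARG targets measured passed (3 and 4 in the same order). Cd36, a scavenger receptor gene, gave 0.29 ± 0.05 between cell kinds (adjusted p = 0.119) and -0.26 ± 0.05 between MHC-II classes (adjusted p = 0.0643), beside Lpl, the lipoprotein lipase gene, at 0.93 ± 0.19 (adjusted p = 0.0618).

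Of the 12 genes listed for MAF, Lyve1 and Il10 passed while Maf itself did not. Lyve1, the hyaluronan receptor gene that marks a subset of resident macrophages near vessels, read 6.21, 7.14 and 6.95 in MHC-II-negative melanophages and 9.57, 10.43 and 10.35 in MHC-II-negative macrophages. It read 4.64, 6.13 and 6.03 in MHC-II-positive melanophages and 6.97, 8.49 and 8.41 in MHC-II-positive macrophages. It was lower in melanophages by -2.85 ± 0.35 (limma adjusted p = 0.0211) with no overlap in either MHC-II class. That call was lost, at an adjusted p of 0.0519 to 0.0815, without any replicate of the MHC-II-negative melanophages, without replicates 2 or 3 of the MHC-II-negative macrophages or without replicate 2 of the MHC-II-positive macrophages. Replicate 1 was the lowest Lyve1 array in all 4 groups, and with the runs of title codes as a block the difference was -2.85 ± 0.11 (limma adjusted p = 5.01e-05). Il10, which encodes the anti-inflammatory cytokine, was 1.08 ± 0.19 higher in MHC-II-positive cells (adjusted p = 0.0330), with means of 8.01 and 9.31 in melanophages and 8.02 and 8.88 in macrophages. Its call held without replicate 1 of either MHC-II-positive group, replicate 2 of the MHC-II-negative melanophages or replicate 3 of the MHC-II-negative macrophages, and leaving out any of the other 8 arrays gave an adjusted p of 0.0605 to 0.0966. Without both macrophage arrays that stood apart it was 0.102, and with the runs as a block 0.00604. Replicate 1 was the lowest Il10 array in every group as well.

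Of the 6 C/EBPB targets, the cytokine gene Il1b and the prostaglandin synthase gene Ptgs2 were higher in MHC-II-positive cells by 1.56 ± 0.11 and 2.69 ± 0.20 (limma adjusted p = 9.83e-05 for each) and kept their calls without any array in turn. Ptgs2 means were 5.87 ± 0.38 and 9.14 ± 0.068 in MHC-II-negative and MHC-II-positive melanophages, and 6.75 ± 0.52 and 8.86 ± 0.41 in the macrophages. The Cebpb transcript itself differed by -0.08 ± 0.08 in this comparison. Il6, of the same list, gave 1.98 ± 0.40 (adjusted p = 0.0618).

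**Figure D4:**
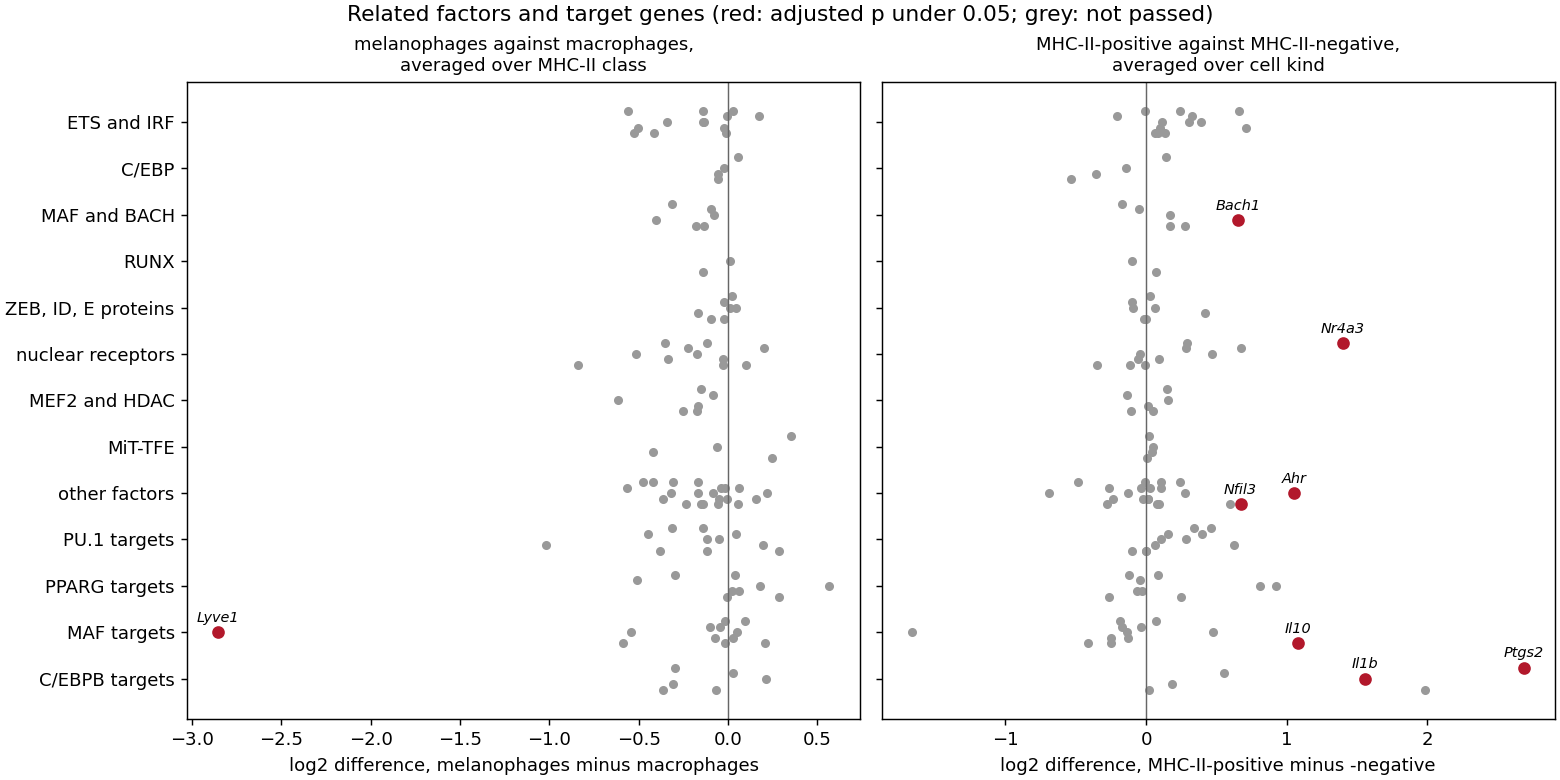
Differences of the listed relatives, partners and targets (points, 1 per gene, grouped by list on the vertical axis) in both averaged comparisons (log2, horizontal axes), with genes past an adjusted p of 0.05 in red. Lyve1 at -2.85 is the only red point between cell kinds. Ptgs2 at 2.69, Il1b at 1.56 and Nr4a3 at 1.40 are the red points farthest to the right between MHC-II classes, where the grey point of Il6 lies between Ptgs2 and Il1b.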

How the data were processed

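Skin melanophages and macrophages were profiled on 12 microarrays, 3 in each of 4 groups. Small amounts of total RNA had been amplified with a NuGEN whole-transcriptome kit, per the labels' protocols. Values are log2 expression as deposited, which per the submitters' processing notes the authors made with oligo and RMA. Their versions and settings: not given in the sources used here. Of 35556 probe sets, 21789 carry 1 gene symbol, 1621 several and 12146 none in the platform annotation. Where a gene had several probe sets, the brightest on average was kept (19938 genes), and each of the 9 factors has 1. limma 3.58.1 in R 4.3.3 (lmFit, eBayes; 8 residual and 2.44 prior degrees of freedom) fitted a mean per group over all 12 arrays. Tests were two-sided. A call required an adjusted p under 0.05, with Benjamini-Hochberg adjustment within each comparison over every gene tested. The fit was tested on simulated data. Precision is limited by the number of arrays.

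The factors and gene lists were chosen with earlier results of these data known. Named are all 9 factors, called relatives and targets, up to 2 uncalled list members with the smallest adjusted p, close relatives and the 3 genes most correlated with each factor. Zeb1, Mef2d, Irf8, Cbfb, Csf1r and Mitf are named as relatives or known targets. 22 or 23 alternatives per comparison covered filters, normalization, probe sets, variance model, array weights, runs of codes in the titles as a block, and left-out arrays. Replicate numbers follow accession order. The 3 runs of title codes each hold 1 array of every group and match these numbers, and the labels do not say what a run marks. Listed genes with no match among probe sets of 1 symbol were not analysed here.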

Additional observations from a re-analysis of the deposited data

How the results depend on the processing

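The count of called factors was 0 in 154 of 158 alternatives. The other 4 gave 1, Runx3 each time. Without replicate 1 of the MHC-II-negative and replicate 3 of the MHC-II-positive macrophages together it was 1 both between cell kinds and between MHC-II classes, and with each array left out in turn it ranged from 0 to 1 between MHC-II classes and within macrophages and was 0 elsewhere. The filter on genes above 5 on 3 arrays removes Runx3. Under the other alternatives its difference ranged from -1.18 to -0.64 between cell kinds (adjusted p 0.0471 to 0.594) and from 0.77 to 1.26 between MHC-II classes (0.0130 to 0.293), and its sign changed in 1 of 151, for the interaction. Of the 63 estimates for single factors, 32 changed sign under some alternative. None of these was called as reported, and their signed estimates are descriptions. Runx1 kept its sign between cell kinds, from -0.81 to -0.44, with a smallest adjusted p of 0.111.

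Called relatives and targets between cell kinds, 1 as reported, numbered 2 with the filter at 5, 2 with quantile normalization, 0 with every probe set tested, 2 with array weights and 4 without both macrophage arrays, and 0 to 1 with an array left out. Between MHC-II classes, 7 as reported, they numbered 11 with the median filter, the filter at 5, the trended robust variance model or array weights, 3 with every probe set, and 3 to 6 with an array left out. Over all 22 alternatives, Ahr, Il1b and Ptgs2 passed in 22, Lyve1 in 15, Il10 in 12, Bach1 in 11, Nfil3 in 10 and Nr4a3 in 8. Of all genes, 24 were called between cell kinds, and 1 (every probe set) to 117 (without both macrophage arrays) under alternatives. The causes were not tested. Over all genes, deviations from the group means correlated at -0.248 to 0.27 for the 18 array pairs that share a run of title codes and at -0.292 to 0.272 for the 36 that do not, and 5 of the 18 exceeded 0.1, so the runs were not taken as pairs. As a block they left 0 factors called. Runx3 in MHC-II-negative melanophages lay at the array medians, where signal over background limits the measurement.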
